A study of Saccharomyces cerevisiae with 2 samples.

Results

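The interior of chromosome X of budding yeast was examined for the signal of DNA double strand breaks in cells recovering from a replication block. The interior was taken as all probes more than 30 kb from position 0 and more than 30 kb from the last probe of the chromosome. This left 2417 of the 2562 probes of chromosome X, out of 41480 probes on the whole array. They ran from 30.1 to 697.8 kb with a median spacing of 251 bp. The rule used position along the chromosome and no measured value.

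Both recovery cultures and their controls were the mec1 strain WFA73, which carries a mutation in MEC1 (the allele is not given in the sources used here). In each case cells arrested in G1 with alpha factor entered S phase with 200 mM hydroxyurea present for 1 h, after which the drug was filtered off and the cells were given 1 h in fresh medium. One culture recovered without BPS and the other with 0.8 micromolar BPS, a chelator of iron. The ends of broken chromosomes were labelled in agarose plugs (Break-chip), with Cy3 for the recovery DNA and Cy5 for G1 DNA of the same strain, and each pair was hybridised to 1 tiling array. The question was whether the chelator, present during recovery, changed where along the genome breaks were found.

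Mec1 is the checkpoint kinase, the relative of human ATR, that keeps stalled replication forks from collapsing and restrains late origins. Hydroxyurea stalls forks by blocking ribonucleotide reductase, an enzyme that itself needs an iron centre. Forks that collapse can leave broken DNA ends, and these lie near the origins from which the forks set out. A centromere on a yeast chromosome is a single short element that replicates early in S phase. A chromosome interior holds both of these features but not the repeated sequence near telomeres.

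There was 1 array per condition. No difference between the conditions could be checked in replicates, and p-values are not given. The number of arrays limits the precision. Values are log2 of the deposited ratio minus the median of that array over all its probes, so 0 is the typical probe of the genome. The standard error (SE) beside a regional mean was taken over its probes and covers scatter within the arrays only. Recovery was taken as the numerator and G1 as the denominator, following the column names. The sources used here do not state the numerator, and if it were G1 every sign below would turn. Extra DNA copies in replicated stretches were not separated from broken ends, and the arrays do not allow total breakage to be compared. Coordinates are those of the deposited table, whose genome build is not given in the sources used here. Genes were placed with the gene table of RefSeq assembly R64. Chromosome X had 2 stretches over 4 kb without probes, from 197.2 to 203.4 kb and from 472.1 to 483.6 kb, and the frames of transposons (YJL113W; YJR027W and YJR029W) fell inside them, with no probe in any of the 3.

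The interior of chromosome X carried a series of hills of signal separated by broad valleys, and most probes lay on the same side of the genome median in both recoveries. The deposited ratios ran from 0.233 to 4.21 with a median of 1.195 without BPS, and from 0.166 to 5.79 with a median of 1.18 with BPS. On the centred log2 scale the medians were −0.02 without and −0.06 with BPS. Over the 2417 probes, which are neighbours on 1 chromosome and share their arrays, the arrays correlated with a Pearson r of 0.783 and a Spearman rho of 0.796. Smoothing, the mean of all probes up to 2 kb away on either side (a median of 15 probes), gave r = 0.882. Of all probes 88.1% had a smoothed signal on the same side of 0 on both arrays.

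**Figure D1:**
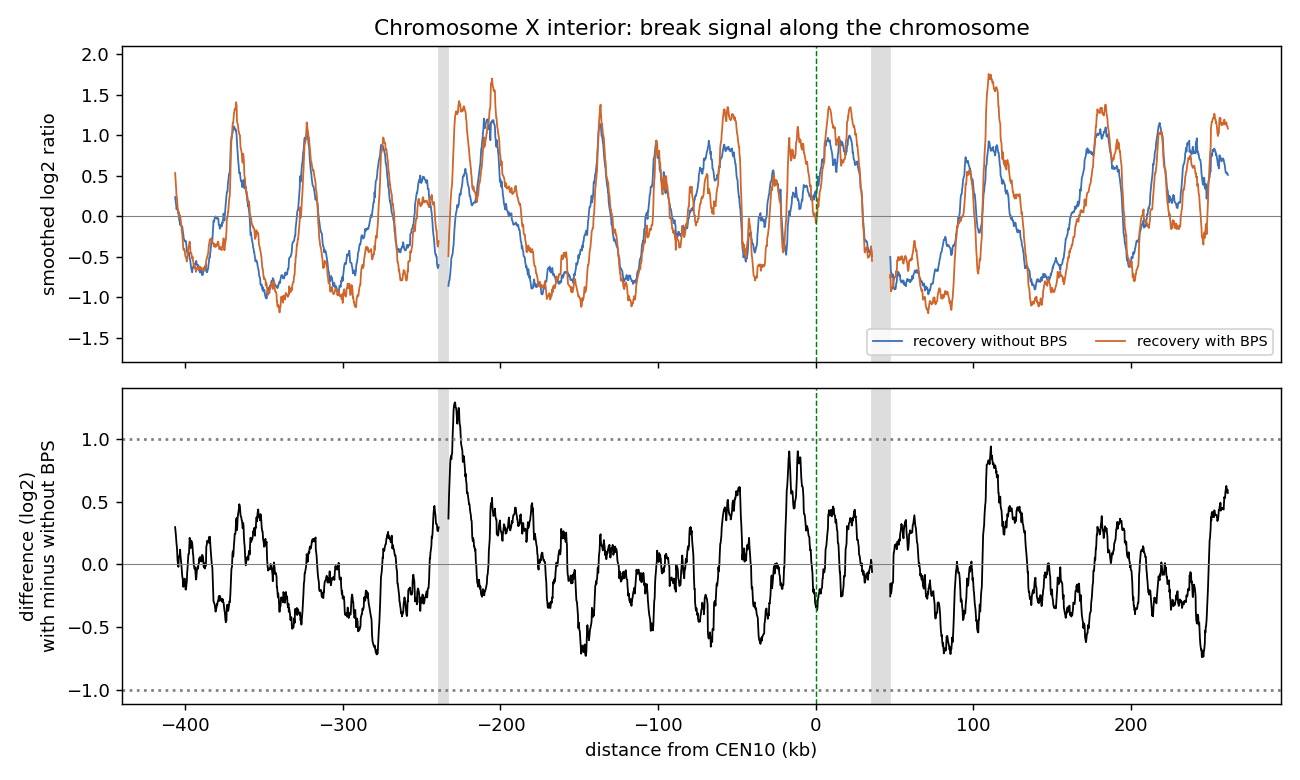
Smoothed log2 ratio (upper panel, means over 2 kb either side) and the difference between the recoveries (lower panel) along the chromosome X interior, against distance in kb from the probe nearest to CEN10 (dashed line). Grey bands hold no probes and dotted lines mark 1 log2 unit. The smoothed arrays lie on the same side of 0 at 88.1% of probes, and only 1 place passes 1 log2 unit of difference.

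Stretches above 0 on both arrays held 42.5% of the probes and stretches below 0 on both held 45.6%. The shared hills at least 10 kb wide numbered 13, with a median width of 13.7 kb and a maximum of 33.5 kb. The shared valleys of that width numbered 10 and were broader, with a median of 28.2 kb. The widest valley ran for 60.8 kb, from 466.4 to 527.2 kb on the right arm, and averaged −0.62 without and −0.74 with BPS. It includes the probe-free stretch at the pair of transposon frames. The widest hill ran from 208.0 to 241.5 kb on the left arm and averaged 0.54 without and 0.90 with BPS.

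Hills tended to stand higher and valleys lower with BPS. Among the hills at least 10 kb wide 10 were higher with BPS and 3 lower, while all 10 valleys of that width were lower. The sign of these counts goes with a wider spread of values on the whole array with BPS. Within the interior the SD was 0.69 without and 0.86 with BPS, a ratio of 1.24, against 1.18 in the other 15 interiors pooled. Where the mean smoothed level was above 0.5, the median difference was 0.19 in the chromosome X interior and 0.12 in the other interiors. Where it was below −0.5, the median differences were −0.16 and −0.15. The share of the wider spread in these differences was not tested.

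Ranked among the 16 chromosome interiors, X was ordinary in level and near the top in amplification. Its median was the 9th highest without BPS and the 11th highest with BPS, between extremes of −0.19 (IV) and 0.49 (III) without BPS. Its ratio of SDs was the 2nd highest after VI (1.27), and the slope of the values with BPS on those without, 0.97, was the highest of the 16 (lowest 0.75, on I). These ranks come from 1 array each and were not tested. The probe noise estimated from adjacent probes (SD) was 0.35 on the array without BPS and 0.41 on the other, below the spread along the chromosome.

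**Figure D2:**
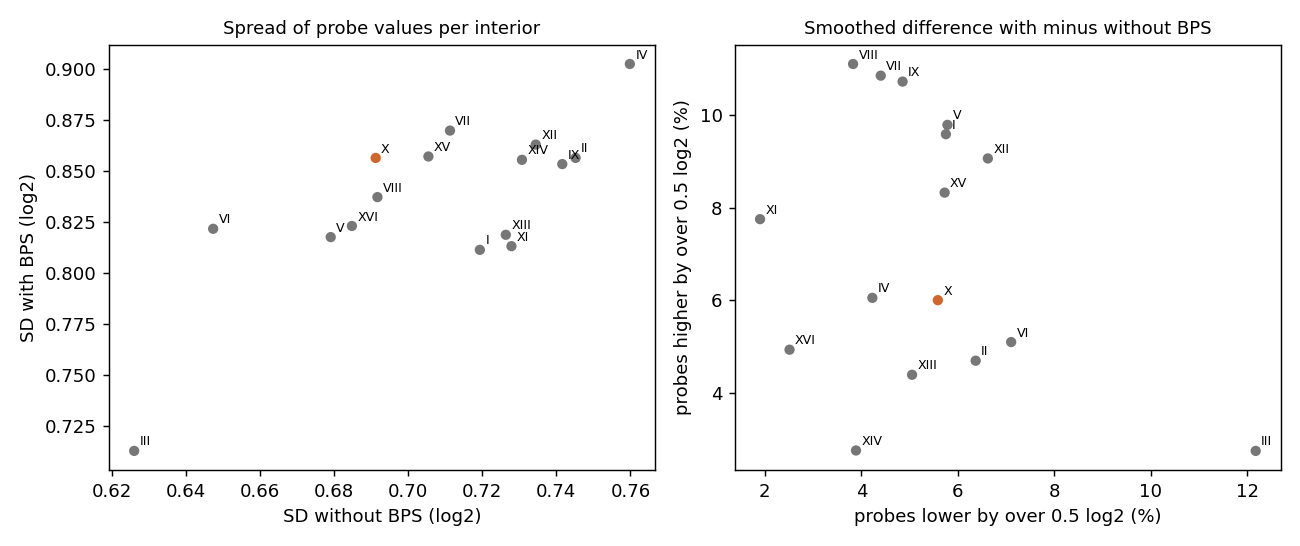
Each point is the interior of 1 chromosome, with X in orange. The left panel sets the SD of probe values with BPS against that without (log2 units), where X has 0.86 with and 0.69 without. The right panel sets the percentage of probes with a smoothed difference above 0.5 log2 units against the percentage below −0.5. There X has 6.0% and 5.59%.

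The highest sites without BPS were spread over both arms. The first was at SET4, a SET domain gene, next to PAM16, a gene for mitochondrial protein import (chromosome X, 226.0 kb). The median deposited ratio of its 16 probes was 2.77 without and 2.42 with BPS, and the centred signal was 1.205 ± 0.11 (SE) and 0.97 ± 0.10. Its neighbour 5 kb to the right, at GSM1 and the mitochondrial elongation factor gene MEF2 (231.1 kb), was the 2nd highest site with BPS, at 1.70 ± 0.07 against 1.17 ± 0.14 without. The differences were −0.23 ± 0.06 at SET4 and 0.53 ± 0.15 at GSM1 and MEF2. Without BPS these neighbours were within their SE of each other, and by median ratio GSM1 and MEF2 were the higher (3.02).

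The other tall hills without BPS lay on both arms. Between YJR124C and ENT3, an endocytosis gene (654.5 kb), the signal was 1.15 ± 0.04 without and 1.02 ± 0.07 with BPS. At SMC3, a cohesin subunit gene (300.0 kb), it was 1.14 ± 0.06 and 1.38 ± 0.07, and the maximum fell on the same probe on both arrays. At UBP12, a deubiquitinase gene (67.4 kb), it was 1.11 ± 0.06 and 1.28 ± 0.09. That hill includes ELO1, a fatty acid elongase gene, where the maximum lay with BPS (68.8 kb, 1.41 ± 0.06).

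The hill between VPS25, an ESCRT-II gene, and URA8, a CTP synthase gene (620.2 kb), again peaked on the same probe and had 1.10 ± 0.07 without and 1.38 ± 0.07 with BPS. Beside JJJ2, a J-protein gene (113.5 kb), the signal was 1.07 ± 0.09 and 1.16 ± 0.10. The last pair of the list lay on 1 broad hill right of the centromere. Between MET3, the gene of ATP sulfurylase, and SPC1, a signal peptidase gene (457.9 kb), the signal was 1.00 ± 0.04 without and 1.33 ± 0.08 with BPS. At SAG1, the alpha-agglutinin gene (444.2 kb), it was 0.97 ± 0.13 and 1.26 ± 0.08.

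With BPS the highest site of the interior was PTK2, a protein kinase gene on the right arm (546.1 kb). The median deposited ratio of its 12 probes was 2.16 without and 4.14 with BPS, which is 0.93 ± 0.09 and 1.75 ± 0.09 after centring. All 12 probes were higher with BPS, at a place chosen for its level with BPS. GZF3, a GATA-factor gene (210.2 kb), was 3rd with 1.42 ± 0.07 and stood at 0.18 ± 0.07 without BPS, so it was a hill on 1 array and little above the genome median on the other. TAD2, a tRNA deaminase gene (380.7 kb), completed the list with 0.83 ± 0.07 and 1.35 ± 0.10.

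At a height of 1 log2 unit there were 6 maxima without and 13 with BPS in the interior. Matching within 2.5 kb paired 5 of the 6 (83.3%) with 5 of the 13 (38.5%). At 0.5 log2 units the lists were equal in length, 20 and 20, and 14 of each (70%) were shared. Of the low points below −0.5 log2 units, 10 of the 22 without (45.5%) and 10 of the 20 with BPS (50%) were shared. Below −1 there was 1 without and 9 with BPS, and none was shared. The same heights were used on both arrays, while the SD of the smoothed signal was 0.59 without and 0.72 with BPS. The part of this wider spread in the counts and shares was not tested.

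The low points fell in genes of many roles. The lowest without BPS was at ATP12, a gene for assembly of the mitochondrial ATP synthase (88.1 kb), at −1.01 ± 0.07 without and −0.83 ± 0.07 with BPS. DPB11, whose product helps start replication (263.0 kb), followed with −0.96 ± 0.06 and −0.87 ± 0.08. GEF1, a chloride channel gene (507.7 kb), had −0.96 ± 0.06 and −1.196 ± 0.07 and was the lowest point with BPS, on the same probe. VPS35, a retromer gene (133.6 kb), had −0.95 ± 0.06 and −0.97 ± 0.08, and the place between HOC1 and the septin gene CDC11 (575.3 kb) had −0.90 ± 0.08 and −1.04 ± 0.11.

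With BPS the next low points were at other places. RFA3, the gene of the smallest subunit of the single-strand binding protein RPA (96.2 kb), had −0.81 ± 0.06 without and −1.19 ± 0.07 with BPS. TAH11, the gene of the origin licensing factor Cdt1 (522.4 kb), had −0.48 ± 0.07 and −1.16 ± 0.09. The place between IDS2 and SFH5 (144.7 kb) had −0.69 ± 0.08 and −1.12 ± 0.06. SCP160, a gene of an RNA-binding protein (287.65 kb), had −0.41 ± 0.09 and −1.12 ± 0.07. These places were chosen for their low level with BPS, so the sign of their differences is no separate result.

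Only 1 stretch of the interior differed by more than 1 log2 unit after smoothing. It spanned 22 probes from 206.2 to 211.2 kb, across MDV1, a gene of mitochondrial fission, CCT7, a subunit gene of the cytosolic chaperonin that folds actin and tubulin, and GZF3, and it was higher with BPS. Those 22 probes are 0.910% of the interior, where the whole genome has 1.44% of its probes past this value. No probe of the interior had a smoothed difference below −1 log2 unit, where the genome has 0.176%. Single unsmoothed probes did pass it, down to −3.72 in NUP192. Among the chromosome interiors, only that of III had any probe with a smoothed difference below −1 (0.658%).

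The gain at MDV1 and CCT7 was seen at each probe of its window. This window was chosen for its smoothed difference, as were those of the other gains and losses below. The number of their probes on 1 side is therefore no separate result. Over the 18 probes from 205.8 to 209.6 kb the deposited ratios ran from 0.751 to 1.98 without BPS and from 1.69 to 5.24 with BPS. The lowest ratio with BPS was thus within the range of those without, and every one of the 18 probes was higher with BPS than the same probe without it. After centring the means were −0.06 ± 0.09 without and 1.23 ± 0.10 with BPS. The difference was 1.29 ± 0.10, or 2.45-fold. At mid-height the gain was 10.3 kb wide.

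Single reading frames showed the same step. CCT7 had 0.05 ± 0.14 without and 1.5 ± 0.15 with BPS over 7 probes, the largest difference of any frame in the interior with at least 4 probes, 1.45 ± 0.10. MDV1 had −0.21 and 1.05 over 9 probes, and GZF3 had 0.26 and 1.26 over 6. UTP10, a gene for ribosomal RNA processing that lies next in line, had 0.47 ± 0.07 and 1.09 ± 0.10 over 19 probes. This stretch lies just right of the probe-free transposon frame YJL113W. On that side the difference was 0.64 ± 0.21 within 2.5 kb of the stretch without probes, 1.18 ± 0.15 at 2.5 to 5 kb, 1.09 ± 0.10 at 5 to 10 kb and 0.29 ± 0.08 at 10 to 20 kb. On the left side the values were 0.26 ± 0.18, 0.43 ± 0.12, −0.23 ± 0.10 and −0.26 ± 0.08. The other stretch without probes, at the paired transposon frames, had differences from −0.23 ± 0.33 to 0.28 ± 0.09 in all these bins on both sides. The bin at −0.23 includes a probe at 483.6 kb with a difference of −3.22. Within 5 kb of stretches over 4 kb without probes, the median difference was 0.28 here and 0.09 in the other 15 interiors. Over all probes it was −0.03 and −0.04. The part of the missing probes in the gain was not tested.

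**Figure D3:**
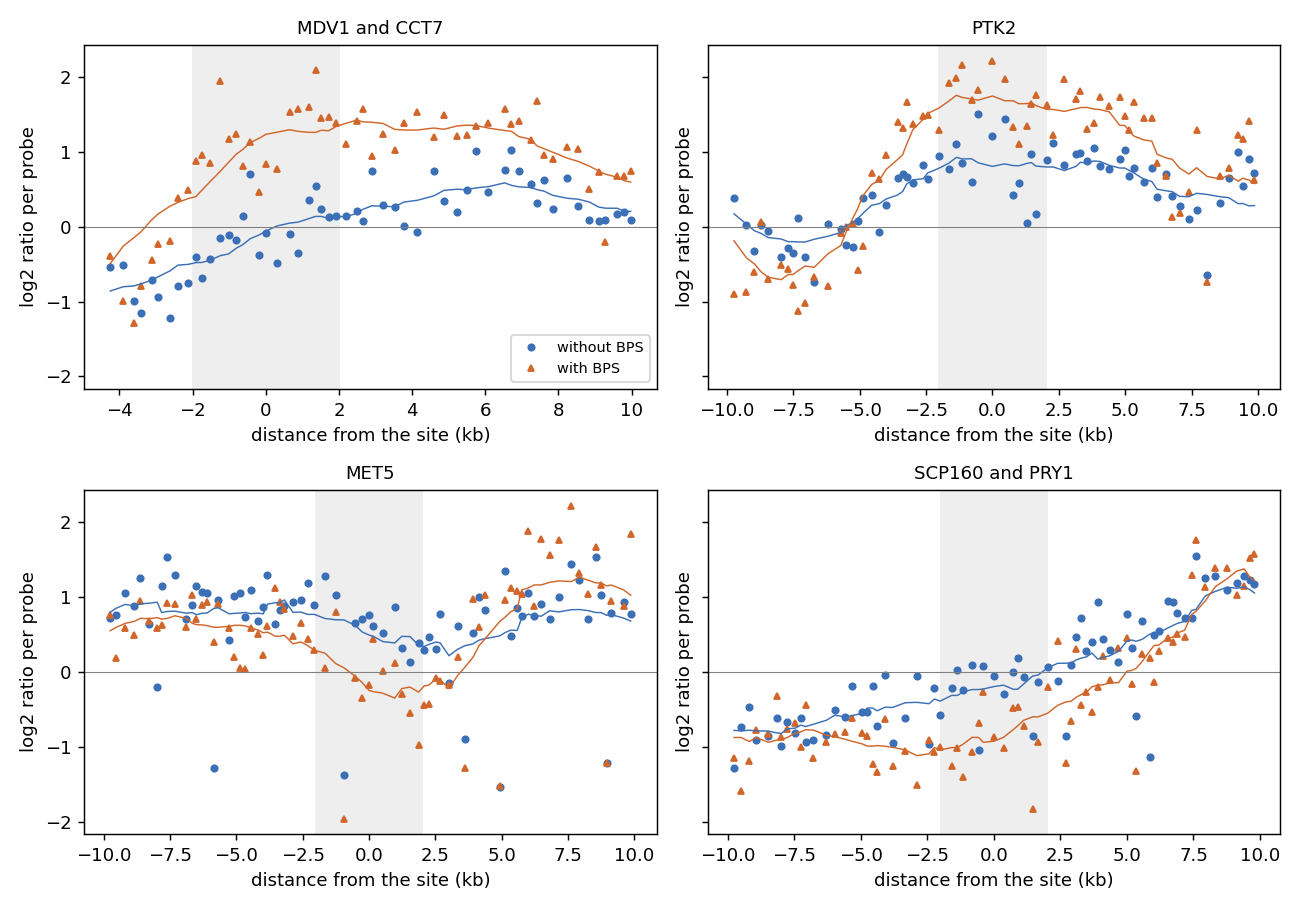
Log2 ratio of each probe (points) and its smoothed mean (lines) around the 2 largest gains (upper panels) and the 2 largest losses (lower panels) with BPS, against distance in kb from the site. The shaded band is the window of 2 kb either side. At MDV1 and CCT7 the means are −0.06 and 1.23, and at MET5 they are 0.49 and −0.25.

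Past 0.5 log2 units of smoothed difference the counts in the 2 directions were close, and their order depended on the scaling of the arrays. There were 145 probes higher with BPS (6.0% of the interior) against 7.84% in the genome, and 135 lower (5.59%) against 4.97% in the genome. With both arrays scaled to a common robust SD the counts were 116 higher and 134 lower, and with quantile normalization 109 and 127. The 145 lay in 10 stretches, all of which were above the genome median on average on both arrays. The largest of them, at MDV1 and CCT7, held 33.8% of the 145. The 135 lay in 18 stretches, of which 10 were below the genome median on average on both arrays and 5 above.

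After MDV1 and CCT7, the next gain was at PTK2 and CBF1, the gene of a factor that binds centromeres and promoters of sulfur genes (547.5 kb). The means were 0.80 ± 0.13 without and 1.75 ± 0.10 with BPS, with a difference of 0.94 ± 0.11 over 12 probes. The block ran on to MNN14 and NTA1 (553.5 kb, 0.60 ± 0.07 and 1.14 ± 0.15). It included CDC8, the gene of thymidylate kinase, which makes a precursor of dTTP, at 0.65 ± 0.04 and 1.45 ± 0.11 over 3 probes.

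A pair of gains lay close to each other on the left flank of the centromere. At the tRNA gene SUP51 and CYR1, the gene of adenylate cyclase (425.0 kb), the means were 0.20 ± 0.12 without and 1.10 ± 0.18 with BPS, with a difference of 0.90 ± 0.14 over 15 probes. At NOP9, a gene for ribosome assembly, and CCT8, another chaperonin subunit gene (419.6 kb), they were 0.07 ± 0.09 and 0.97 ± 0.10, and the difference was 0.90 ± 0.08. All 15 probes were higher with BPS at either place. The remaining places of the list were UTP10 (213.2 kb, 0.86 ± 0.11, a shoulder of the gain at CCT7), IPA1 on the right arm (696.8 kb, 0.63 ± 0.11) and the place between MAD2, a spindle checkpoint gene, and VPS53 (388.3 kb, 0.62 ± 0.10).

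The 8 largest losses with BPS ran from −0.61 to −0.74, where the 8 largest gains ran from 0.54 to 1.29. The largest loss was in MET5, the gene of a sulfite reductase subunit that carries a sirohaem and an iron-sulfur cluster (681.3 kb). The deposited ratio of its 12 probes had medians of 1.88 and 1.13, without and with BPS. The means were 0.49 ± 0.19 and −0.25 ± 0.20, a difference of −0.74 ± 0.10, and no probe was higher with BPS. The shared hills on either side, from 668.0 to 680.4 kb and from 684.9 to 697.8 kb, were above 0 on both arrays.

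The next loss lay at SCP160 and PRY1, a gene of a secreted sterol-binding protein (290.5 kb), where the means were −0.20 ± 0.10 without and −0.93 ± 0.12 with BPS. The difference was −0.73 ± 0.12, at the right end of a shared valley that ran from 250.0 to 292.2 kb. Between RPS21B, a ribosomal protein gene, and LCB3, a gene of sphingolipid metabolism (157.9 kb), the means were 0.45 ± 0.13 and −0.26 ± 0.16. There the difference was −0.72 ± 0.07, with none of 15 probes higher with BPS.

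At SSC1, the mitochondrial Hsp70 gene, and TAH11 (521.9 kb) the means were −0.40 ± 0.07 and −1.11 ± 0.11 and the difference −0.71 ± 0.11. The same block took in POL32, a gene of a DNA polymerase delta subunit (516.6 kb, −0.61 ± 0.10). At BBC1, an actin patch gene (401.3 kb), the difference was −0.63 ± 0.10, and between the non-coding IRT1 and RPL43B (607.8 kb) it was −0.62 ± 0.08. The loss in the nuclear pore gene NUP192 (369.8 kb), −0.66 ± 0.23, rested in part on 1 probe, whose ratio was 2.16 without and 0.166 with BPS. Without that probe the difference was −0.44.

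Around the centromere the chelator array showed a notch with raised flanks. CEN10, placed between PRE3 and AVT1, had 0.24 ± 0.12 without and −0.08 ± 0.13 with BPS over 16 probes. Within 5 kb of it (39 probes) the medians were 0.37 without and 0.21 with BPS. At 5 to 20 kb (109 probes) they were 0.44 and 0.94, and beyond 50 kb they were −0.06 and −0.11. The left flank accounted for most of the step, with 0.22 and 0.81, against 0.89 and 1.07 on the right flank. The 2 gains at NOP9 and at SUP51 and CYR1 lie on that left flank.

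Set beside the other centromeres, the flanks of CEN10 had the highest level with BPS and the largest difference. The median difference at 5 to 20 kb was 0.31, where the 16 centromeres ran from −0.43 to 0.31 with a median of −0.04. Without BPS the same flanks of CEN10 ranked 15th of 16. Within 5 kb CEN10 ranked 12th without and 13th with BPS. With 1 array per condition these ranks were not tested.

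The right arm had the higher median on both arrays. The median difference with BPS was small on both arms, at −0.04 on the left and −0.01 on the right. The left arm had medians of −0.08 without and −0.11 with BPS over 1498 probes, and the right arm had 0.14 and 0.04 over 919 probes.

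Gene by gene, 324 of the 337 reading frames of the interior held a probe. Their medians were −0.02 without and −0.08 with BPS, and the median difference was −0.06, against −0.03 over the 5650 frames of the genome with a probe. Frames higher with BPS by more than 0.5 log2 units numbered 30 (9.26%), where 10.6% of all frames were so. Those lower by as much numbered 26 (8.02%), where 8.64% of all frames were so. Both shares are near the background.

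Genes of replication, repair, checkpoint and chromosome maintenance are a set in which 21 of the 22 listed lay in the interior, MGM101 being outside it. Their median was −0.11 without and 0.22 with BPS. Of the 21, 13 (61.9%) were higher and 8 lower with BPS, where 45.7% of the frames of the interior and 47.3% of those of the genome were higher. The median difference was 0.27, and 3 passed 0.5 log2 units. These were CDC8, MAD2 (0.07 and 0.94 over 2 probes) and, in the lower direction, POL32 (−0.14 and −0.95 over 4 probes). The list was chosen with earlier results of these data known, so its share is no separate result. Not every such gene of the interior is listed, so the share and the median difference are for the 21 only. Among the reading frames left out, TAH11 and MCM22, a kinetochore gene, were lower with BPS by more than 0.5 log2 units. RFA3 was lower by less than that, and DPB11 was higher.

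The highest frame of that set with BPS was CDC8, given above. Other high ones also lay on hills. CDC6, whose product loads the replicative helicase at origins, had 0.82 ± 0.08 without and 1.27 ± 0.11 with BPS, on the hill at ELO1. SMC3 had 0.97 ± 0.09 and 1.12 ± 0.15. POL31, another subunit gene of DNA polymerase delta, had 0.77 ± 0.15 and 1.09 ± 0.10, and HIR3, a histone chaperone gene, had 0.70 ± 0.07 and 1.15 ± 0.08. TOR1, the gene of the growth-controlling kinase, is the longest frame of the interior by probes. It had −0.11 ± 0.05 and 0.32 ± 0.06 over 28 probes, a difference of 0.43 ± 0.06.

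Other members of the set lay in valleys. SRS2, the gene of an antirecombinase helicase, had −0.85 ± 0.08 without and −0.67 ± 0.07 with BPS, and RAD26, a repair ATPase gene, had −0.68 ± 0.09 and −0.32 ± 0.13. SET2, a histone methyltransferase gene, had −0.48 ± 0.10 and −0.83 ± 0.06. BIR1, a gene of the chromosomal passenger complex, had −0.49 ± 0.10 and −0.79 ± 0.11. ASF1, a histone chaperone gene, had −0.76 and −0.79 over 2 probes.

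Genes of iron, haem, copper and respiration had all 14 listed members in the interior and split evenly, 7 higher and 7 lower with BPS. Their medians were 0.05 without and −0.02 with BPS, and MET5 alone passed 0.5 log2 units, at 0.57 ± 0.17 and −0.16 ± 0.18 over its 14 probes. RNR2, the gene of the small subunit of ribonucleotide reductase that holds the iron centre, had −0.35 ± 0.07 and 0.10 ± 0.17 over 5 probes. Its difference of 0.45 ± 0.20 was below the 0.5 log2 units used here. SDH9, a relative of the succinate dehydrogenase flavoprotein gene, had 0.08 ± 0.06 and 0.56 ± 0.16.

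GSH1, the gene that starts glutathione synthesis, had 0.59 ± 0.20 without and 0.95 ± 0.24 with BPS, on the hill at MEF2. CYC1, the gene of iso-1-cytochrome c, had 0.01 and 0.02 over 2 probes, and SOD1, the copper-zinc superoxide dismutase gene, had 0.28 and 0.56 at its only probe. ATP2, an ATP synthase gene, had 0.37 ± 0.11 and −0.06 ± 0.03. BNA2, the gene of a haem-containing dioxygenase, lay in a valley on both arrays, at −0.80 ± 0.11 and −0.89 ± 0.08.

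Of 8 cytosolic ribosomal protein genes listed, 7 lay in the interior, with medians of 0.40 without and 0.20 with BPS, and 2 of them (28.6%) were higher and 5 lower with BPS, where 45.7% of the frames of the interior were higher. The median difference was only −0.04, and it was −0.52 with genes moved 1 kb down the chromosome. This list too was chosen with earlier results of these data known, so its shares are no separate result. RPS21B, beside the loss at 157.9 kb, had 0.31 ± 0.20 and −0.62 ± 0.07 and was the only one past 0.5 log2 units. RPL17B was low on both arrays, at −0.90 ± 0.11 and −0.79 ± 0.15. Ribosomal protein genes exist as near-identical pairs, so probes in RPL17B, RPS21B and RPL43B can share signal with their copies.

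Of the chaperonin and import genes 7 of 8 (87.5%) were above 0 on each array, where 49.1% without and 47.5% with BPS of the frames of the interior were above it, with medians of 0.59 without and 0.96 with BPS. The list was chosen with earlier results of these data known, so its share is no separate result. It does not hold every chaperone or import gene of the interior, and the share is for its members only. Among those left out, SSC1 (−0.38 and −0.72) and PFD1 (−1.11 and −0.72) were below 0 on both arrays. TIM8, also left out, was above 0 on both at its only probe (0.69 and 0.51). The 4 chaperonin subunit genes are scattered over both arms. CCT7 had the gain already given. CCT8 had 0.25 ± 0.08 and 0.94 ± 0.13, CCT5 had 0.69 ± 0.10 and 0.98 ± 0.13, and CCT3 had 0.49 ± 0.14 and 0.43 ± 0.16. KAR2, the Hsp70 gene of the endoplasmic reticulum, had 0.83 ± 0.11 and 1.21 ± 0.09.

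Of the glycolytic genes, TDH2 had 0.59 ± 0.16 without and −0.08 ± 0.46 with BPS over 3 probes, and TDH1 had 0.29 ± 0.58 and 0.12 ± 0.67 over 4. Both encode glyceraldehyde-3-phosphate dehydrogenase and have close relatives, which probes can share. The cell wall genes PIR5 and HSP150, neighbours of 1 family, had differences of 0.23 and 0.01. CIS3, the third of them, had −0.73 ± 0.68 and −1.04 ± 0.79.

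**Figure D4:**
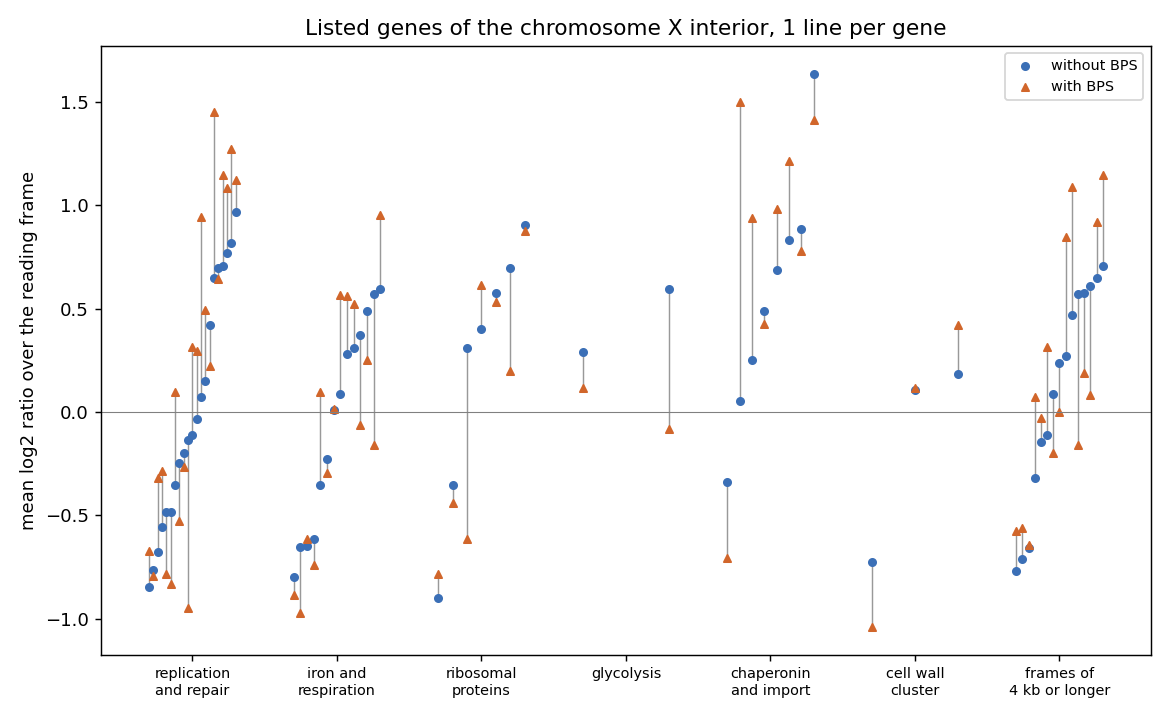
Mean log2 ratio over each listed reading frame of the interior without BPS (circles) and with BPS (triangles), joined by a line per gene and grouped by list. CCT7 has the longest line upwards, from 0.05 to 1.5, and members of each larger list go both ways.

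Long reading frames allowed the signal to be followed within a gene. Of 18 frames of 4 kb or longer, 15 held probes, the other 3 being the transposon frames. IML1, a gene of nutrient signalling to TOR complex 1, climbed from its 5′ to its 3′ part, with means of 0.35 and 0.98 without BPS and 0.35 and 1.55 with BPS. Its 5′ part holds a pair of narrow dips, at 684.9 kb (−0.89 and −1.28) and 686.2 kb (−1.54 and −1.52), which lower both 5′ means. URA2, which starts pyrimidine synthesis, climbed from −0.37 to 0.06 without and from −0.35 to 0.27 with BPS. LAA1 was even, with −0.75 and −0.54 without and −0.62 and −0.68 with BPS. MHP1 was lower with BPS, at 0.58 ± 0.05 without and 0.19 ± 0.06 with BPS. CYR1 was higher, at 0.27 ± 0.08 and 0.84 ± 0.11.

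Genes for transfer RNA, which are transcribed by RNA polymerase III and are known to slow forks, mostly lay below their surroundings, by little without BPS. All 24 in the interior had a probe within 0.5 kb. The median there was −0.03 without and −0.16 with BPS. Compared with probes up to 3 kb away on either side, 17 of the 24 were lower without and 20 with BPS, with median shortfalls of −0.07 and −0.28. No count for other places is given beside these, so whether tRNA genes differ from other places in this was not tested. Relative to the smoothed signal, probes within 0.5 kb of a tRNA gene had medians of −0.02 without and −0.16 with BPS. Intergenic probes between tandem genes had 0.00 and −0.10, and those between divergent genes 0.03 and −0.06. In the other 15 interiors probes at tRNA genes had −0.05 and −0.30. Some of the 24 are neighbours that share probes, so they are not independent. EMT5, a methionine tRNA gene, had the deepest dip with BPS, −1.23 below its surroundings, against −0.42 without BPS. Its value is a mean over 5 probes. Neighbouring probes near it, at 391.5 and 391.7 kb, were very low, at −2.38 and −2.37 with BPS. EMT3, another such gene near CYR1, went the other way, standing 0.26 above its surroundings without and 0.59 above them with BPS.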

How the data were processed

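The deposited table holds 1 linear ratio per probe and array, which the authors call normalized in its name. The submitters' processing notes name Agilent Feature Extraction 9.5.1. How the ratio was normalized is not given in the sources used here. Both arrays have the same dye orientation, so dye bias stays in each level. Signal over background was not assessed.

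Groups came from the source names of the Cy3 channel. Ratios were converted to log2, centred on each array's median over all 41480 probes, and averaged within 2 kb either side, with no filter. Hills and low points were extremes within 5 kb either side. Places named are the 8 highest maxima and 5 lowest minima of each array, the 8 largest differences in each direction at least 5 kb apart, CEN10 and members of the gene lists. The stretch means, tRNA values and long frames were described as well. CEN10 lies between the genes that start the arms. Replication origins are not part of the gene table and were not analysed here. The values of 1 listed ribosomal protein gene are not reported here. The interior and the lists were chosen with earlier results of these data known. No test was possible with 1 array per condition. The routines were tested on simulated data. Python 3.11.15, numpy 2.4.6 and pandas 2.3.3 were used.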

Additional observations from a re-analysis of the deposited data

Results flagged for a closer look

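In 5 of the windows named from the smoothed signal or placed at CEN10, the mean was above the genome median on 1 array and below it on the other, with 1 array per condition, and the difference was not tested. Between MDV1 and CCT7 it went from −0.06 without to 1.23 with BPS, a difference of 1.29. In MET5 it went from 0.49 to −0.25 (−0.74), between RPS21B and LCB3 from 0.45 to −0.26 (−0.72), at BBC1 from 0.04 to −0.59 (−0.63) and at CEN10 from 0.24 to −0.08 (−0.32). At BBC1 without BPS and at CEN10 with BPS the level was within 1 SE of 0 over probes (0.12 and 0.13), and so was that at MDV1 and CCT7 without BPS (0.09).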

How the results depend on the processing

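Scaling both arrays to a common robust SD, quantile normalization and an interior starting 60 kb from the ends moved no summary level beyond its scatter over probes and no count by over 1.5 times. The order of the counts past 0.5 log2 units did turn, to 116 higher and 134 lower with the common SD and 109 and 127 with quantile normalization. Quantile normalization moved the difference at 13 named regions beyond its scatter. It turned UBP12 from 0.17 to −0.05, the place at JJJ2 from 0.08 to −0.12 and that between HOC1 and CDC11 from −0.13 to 0.03, and took SMC3 from 0.24 to 0.00 and VPS25 and URA8 from 0.28 to 0.05. The small differences at YJR124C and ENT3, DPB11 and VPS35 also changed sign under at least 1 alternative. Without centring the medians were 0.26 without and 0.24 with BPS, those within 5 kb of CEN10 were 0.65 and 0.50, and those at 5 to 20 kb were 0.71 and 1.24, because the arrays' own medians then stay in. With windows of 4 kb either side, 74 probes had a smoothed difference below −0.5 log2 units in place of 135. With genes moved 1 kb down the chromosome, the median difference of ribosomal protein genes was −0.52, against −0.04, and the cause was not tested. Probes with a smoothed difference above 1 log2 unit numbered from 19 to 33 over all alternatives, and none had one below −1 under any. All 16 places with the largest differences kept their sign under every alternative that covered them, including the one chosen after seeing the data, which left out the most deviant probe. They were chosen for large differences on these same arrays, so a kept sign was likely beforehand and is no separate result. The difference at MDV1 and CCT7 ran from 1.04 to 1.34, that in NUP192 from −0.31 with window medians to −0.82 with windows of 1 kb. Windows of 4 kb brought the place between MAD2 and VPS53 from 0.62 to 0.32 and that between NOP9 and CCT8 from 0.90 to 0.52. No paired analysis was possible because each group holds 1 array. The single array per condition limits every difference.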

Other observations

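Narrow dips of 1 or a few probes recurred at the same places on both arrays. Both arrays carry the same probes in the same dye orientation. An effect of the probe therefore cannot be told apart from a local lack of breaks at these dips. In the interior 36 probes (1.49%) lay more than 1 log2 unit below the smoothed signal on both arrays, and 0 lay above it by as much on both. In the other 15 interiors the shares were 1.14% and 0.0219%. The lowest without BPS was at 416.5 kb, between the tRNA gene YNCJ0019C and NOP9, with ratios of 0.233 without and 0.243 with BPS. In MET5 (680.4 kb) 1 probe had −1.38 and −1.96 where the smoothed signal was 0.69 and 0.06, and in IML1 (686.2 kb) 1 had −1.54 and −1.52 on a hill. Beside and in TDH1 there were 3 such probes, at 337.5, 337.9 and 339.3 kb, from −1.23 to −1.54 without and from −1.82 to −2.22 with BPS. At 391.5 and 391.7 kb, near the tRNA gene EMT5, neighbouring probes had −1.59 and −1.57 without and −2.38 and −2.37 with BPS.

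Probes in tandem and divergent intergenic stretches had lower median differences than those in reading frames, and convergent ones (−0.02 over 84 probes) stood nearer to the frames. In tandem intergenic stretches of the interior the median was −0.06 without and −0.28 with BPS over 287 probes, and in divergent ones, which hold promoters on both sides, 0.05 and −0.11 over 189. Within reading frames it was −0.02 and −0.01 over 1844. In the other interiors the median differences were −0.08, −0.11 and −0.02 for the same 3 classes, against −0.21, −0.13 and 0.00 here.

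Some differences rested on 1 probe. In ALY2 (276.8 kb) 1 probe had a ratio of 0.742 without and 4.47 with BPS, and the first probe right of the paired transposon frames (483.6 kb) had 3.52 and 0.383.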
